A study of Homo sapiens with 14 samples.

Results

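DHRS2, ALDH1A1 and 8 further genes were followed in CWR22Rv1 cells treated with inhibitors of fucosylation or sialylation. Apart from DHRS2, which acts on dicarbonyl compounds, they were grouped for retinoid (vitamin A) metabolism. The 10 genes are DHRS2, DHRS3, DHRS4, DHRS9, ALDH1A1, ALDH1A2, ALDH1A3, RDH10, RDH11 and CRABP2. They were taken by name from the count tables, where they make up 10 of the 27819 genes shared by all 4 tables. The set was selected on measured values, since the low levels of DHRS2 and ALDH1A1 in the treated libraries were already known when it was drawn up. Their differences from DMSO are therefore given as a description. Calls from the fit across all genes are counted for them once, beside the share of all genes called, and support nothing.

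Retinol is oxidised to retinal by retinol dehydrogenases of the short-chain dehydrogenase family, and retinal is oxidised to retinoic acid by the retinaldehyde dehydrogenases of the ALDH1A family. Retinal reductases run the first step backwards, and binding proteins carry the lipid between enzymes and the nuclear receptors that it activates. In the prostate, retinoic acid acts on epithelial differentiation, and ALDH1A1 is widely used as a marker of cells with high aldehyde dehydrogenase activity.

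The experiment asked how metabolic inhibitors of fucosylation and sialylation alter gene expression in prostate cancer cells. CWR22Rv1 is an established human prostate cancer cell line, and every library came from this single line after 72 h of treatment. The groups were DMSO, the solvent control (n = 3), 30 μM Fucotrim I (n = 3), 60 μM Fucotrim II (n = 2), 100 μM SGN-2FF (n = 3) and 2 μM P-SiaFNEtoc (n = 3). Fucotrim I and Fucotrim II are rhamnose-1-phosphate derivatives aimed at GMDS, the enzyme that opens the de novo route to GDP-fucose. SGN-2FF is 2-fluorofucose, which blocks fucosyltransferases through the salvage route, and P-SiaFNEtoc inhibits sialyltransferases. The doses differed, so values for the inhibitors are set side by side and the compounds are not compared with each other. All 4 comparisons share the same 3 DMSO libraries.

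The 14 libraries held between 12553094 and 19981453 counts on genes. Mitochondrially encoded genes took 5.98% to 7.03% of the counts in DMSO and 6.11% to 6.83% with P-SiaFNEtoc, against 8.27% to 8.68% with SGN-2FF, 8.67% to 14.25% with Fucotrim I and 12.15% to 17.03% with Fucotrim II. All 10 prostate luminal markers checked, among them KLK3 and FOLH1, were at or above 1 CPM (a read count scaled to library size) in every library. Their summed level was 2265 to 2344 CPM in DMSO and 2608 to 3275 CPM in the treated libraries. Basal epithelial markers summed to at most 0.454 CPM and endothelial markers to at most 0.251 CPM. Immune markers summed to 4.95 to 8.63 CPM with 1 of 4 genes at or above 1 CPM and CD3E at 0 in every library. Stromal markers summed to 18.7 to 32.7 CPM with 2 of 4 genes, and neuroendocrine markers to 94.5 to 156 CPM with 1 of 3 genes. In DMSO these sums were 5.39 to 6.54, 19.1 to 21.1 and 97.3 to 110 CPM. Wholly above DMSO were Fucotrim II for stromal (26.2 to 32.7) and neuroendocrine markers (130 to 156). The same held for SGN-2FF for immune markers (6.99 to 8.63) and P-SiaFNEtoc for stromal markers (21.2 to 22.4). The other groups overlapped or touched the DMSO ranges. The part of the mitochondrial share and of these markers in the results below was not tested. In bulk RNA, fewer cells that express a gene and less RNA per cell cannot be told apart.

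The 250 bases before the annotated start of DHRS2 and of ALDH1A1 are shown because these genes had the largest differences from DMSO with the Fucotrims, and because both sequences lie below the lower quartile of G and C content over all promoters. They are RefSeq sequences of GRCh38.p14, written 5′ to 3′ on the strand of the gene. DHRS2 lies on the plus strand at chr14:23629865-23630114, and capitals mark a TATAAA motif. ALDH1A1 lies on the minus strand at chr9:72953054-72953303, and capitals mark a CCAAT motif.
DHRS2: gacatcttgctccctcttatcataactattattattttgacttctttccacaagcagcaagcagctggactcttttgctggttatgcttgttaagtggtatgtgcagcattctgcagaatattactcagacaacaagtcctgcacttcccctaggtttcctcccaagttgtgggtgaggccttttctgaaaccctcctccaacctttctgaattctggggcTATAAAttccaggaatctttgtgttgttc
ALDH1A1: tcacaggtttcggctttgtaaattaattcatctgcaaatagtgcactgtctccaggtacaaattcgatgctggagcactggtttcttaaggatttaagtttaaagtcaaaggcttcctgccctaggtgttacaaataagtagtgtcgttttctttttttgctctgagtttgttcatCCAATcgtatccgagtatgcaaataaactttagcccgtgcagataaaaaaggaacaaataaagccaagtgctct

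Promoter sequences of 300 bases, from 250 before to 50 after the start, were at hand for 9 of the 10 genes. The TATAAA motif of DHRS2 starts at position -29 from the gene's start, and DHRS9 holds the same letters at -114 and -32. On either strand, TATAAA occurs in 12% of the 27305 promoters of this length. The CCAAT letters stand at similar positions in the 3 ALDH1A genes, at -74 in ALDH1A1, -62 in ALDH1A2 and -71 in ALDH1A3. They also occur on the minus strand of RDH11 at -22, and in 35.7% of all promoters on either strand. These matches describe the letters only.

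Base composition set the promoters of DHRS2, ALDH1A1 and DHRS9 apart from those of the other members. The DHRS2 window was 44% G and C with 0 CpG dinucleotides, that of ALDH1A1 40.3% with 7, and that of DHRS9 39.3% with 1. Over all promoters the median was 58.33% (quartiles 46.67% and 67.67%) and 14 CpG dinucleotides (quartiles 3 and 28). RDH11 was at 55% and the other 5 promoters were at 64% to 81.7%, with 20 to 46 CpG dinucleotides. The GGGCGG motif was found in DHRS3, DHRS4, ALDH1A2 and ALDH1A3 and in 44.6% of all promoters. The other letters searched on both strands were in 0 of the 9 windows. These were AGGTCA, the half-site of retinoic acid receptors, which 13.9% of all promoters hold, and its direct repeats with 5 bases between the parts (0.00366% of all promoters) or 2 (0%). They were also AGAACA, a half-site of steroid receptors (14.9%), the E-box of the letters CACGTG (7.43%), and the amino acid response element of the letters TGATGCAAT (0.264%).

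The members sit on 6 chromosomes, given here in hg38 with GENCODE positions. DHRS2 (NCBI gene 10202) spans chr14:23630115-23645639, and DHRS4 (10901) lies on the same strand at chr14:23953734-23969279. RDH11 (51109) is on the minus strand at chr14:67676800-67695793. ALDH1A1 (216) spans chr9:72900671-73080442 on the minus strand, and the RefSeq start used above lies inside this longer span. ALDH1A2 (8854) and ALDH1A3 (220) are both on chromosome 15, at chr15:57953424-58497866 on the minus strand and chr15:100877714-100916626 on the plus strand. DHRS3 (9249) is at chr1:12567910-12618210 and CRABP2 (1382) at chr1:156699606-156705816, both on the minus strand. DHRS9 (10170) is at chr2:169064789-169096167 and RDH10 (157506) at chr8:73294602-73325281, both on the plus strand. The counts are over whole genes, so exons, introns and untranslated parts are not separated.

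Among the solvent controls, DHRS2, RDH11 and ALDH1A1 made up the abundant end of the set. In DMSO, levels per kilobase of the main annotated transcript were 83.2 ± 4.24 CPM per kb for DHRS2, 55.1 ± 0.789 for RDH11 and 45.9 ± 1.32 for ALDH1A1 (SD, n = 3). DHRS4 followed at 13.9 ± 2.42, CRABP2 at 9.34 ± 0.569, DHRS3 at 6.63 ± 0.602 and RDH10 at 3.14 ± 0.195 CPM per kb (SD, n = 3). ALDH1A3 was at 0.566 ± 0.0509 CPM per kb (SD, n = 3), and DHRS9 and ALDH1A2 had at most 1 count per DMSO library. Neighbours in this order did not overlap between their DMSO libraries, apart from DHRS9 and ALDH1A2. The order depends on the transcript taken as length: over all annotated exons, which add up to 7527 bases for DHRS2 against 1676 in its main transcript, ALDH1A1 came first at 33.8, then RDH11 at 25.4 and DHRS2 at 18.5 CPM per kb, and CRABP2 at 8.41 passed DHRS4 at 8.15. The main transcript was chosen as length after the levels over all exons had been seen.

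DHRS2 and ALDH1A1 stood lower than DMSO in every treated library. DHRS2, also known as HEP27, encodes a short-chain dehydrogenase/reductase that acts on dicarbonyl compounds. In DMSO it was at 132, 141 and 145 CPM in replicates 1, 2 and 3 (2394, 2541 and 2323 counts). It was at 25, 28.2 and 26.5 CPM with Fucotrim I (349, 418 and 317 counts) and at 13.9 and 19.4 CPM with Fucotrim II (232 and 343 counts). With SGN-2FF its level was 67.1, 70.3 and 62.7 CPM (886, 1183 and 826 counts), and with P-SiaFNEtoc 82, 83.1 and 86.9 CPM (1705, 1319 and 1380 counts). No treated library reached the lowest DMSO library.

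The log2 fold change of DHRS2 from DMSO was -2.39 (standard error 0.07) with Fucotrim I, -3.07 (0.12) with Fucotrim II, -1.05 (0.05) with SGN-2FF and -0.73 (0.05) with P-SiaFNEtoc. On the linear scale it was 5.22-fold, 8.37-fold, 2.07-fold and 1.66-fold lower. Ordered from the lowest log2 fold change, DHRS2 took place 2 of 14188 genes with Fucotrim I, 8 of 14617 with Fucotrim II, 19 of 14312 with SGN-2FF and 49 of 14259 with P-SiaFNEtoc. Its values without mitochondrially encoded genes were -2.38, -3.06, -1.05 and -0.73. Of the Fucotrim II libraries, replicate 1 had the lower DHRS2 level and the higher mitochondrial share (17.03% against 12.15%). Among the Fucotrim I libraries, the lowest DHRS2 level was in replicate 1, with the lowest share (8.67%). The share differed with treatment, and its part in these levels was not tested.

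ALDH1A1 encodes the cytosolic retinaldehyde dehydrogenase. It was at 99.1, 95.7 and 93.6 CPM in DMSO (1802, 1723 and 1494 counts). With Fucotrim I it was at 24.1, 27.7 and 29.3 CPM (336, 410 and 350 counts) and with Fucotrim II at 31.6 and 22.5 CPM (526 and 398 counts). With SGN-2FF it was at 71.6, 66.5 and 71.2 CPM (946, 1119 and 938 counts), and with P-SiaFNEtoc at 81.2, 74.7 and 83.4 CPM (1688, 1185 and 1324 counts). All treated libraries lay below the DMSO libraries.

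For ALDH1A1 the log2 fold change was -1.83 (standard error 0.07) with Fucotrim I, -1.84 (0.12) with Fucotrim II, -0.45 (0.05) with SGN-2FF and -0.27 (0.05) with P-SiaFNEtoc. This is 3.56-fold, 3.57-fold, 1.37-fold and 1.2-fold lower. Its place from the lowest log2 fold change was 10, 33, 312 and 899. At 14.25% of counts, Fucotrim I replicate 3 had the highest mitochondrial share of its group and the highest ALDH1A1 level, and the same held for Fucotrim II replicate 1. The part of the share in the ALDH1A1 levels was not tested either. Without mitochondrially encoded genes the log2 fold changes were -1.83, -1.83, -0.46 and -0.27.

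**Figure D1:**
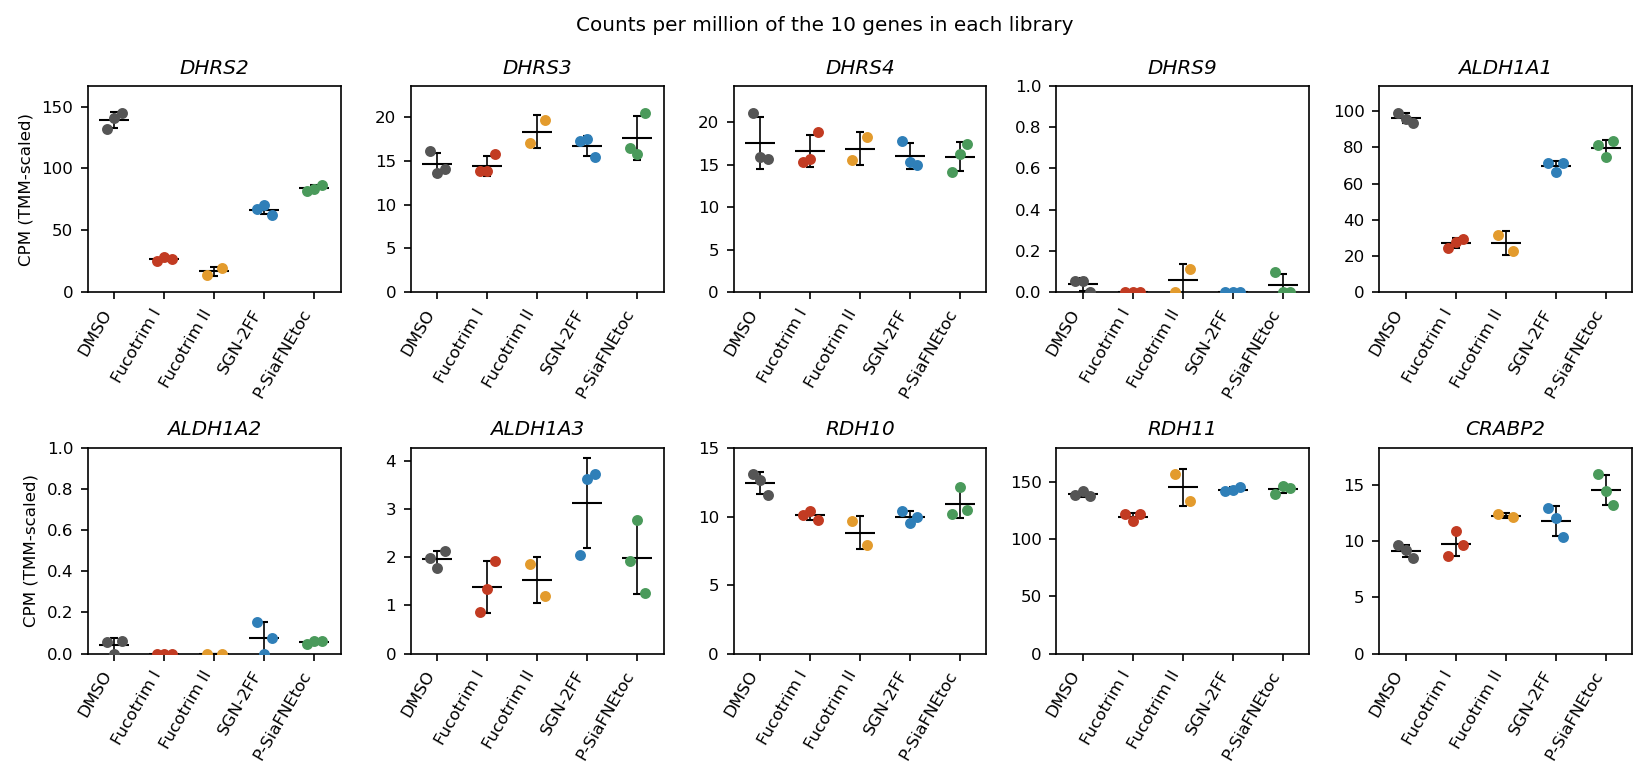
CPM after TMM scaling (vertical axes, linear, each from 0) of the 10 genes in each library, with 1 point per library, a line at the group mean and bars of 1 SD, for DMSO, Fucotrim I, SGN-2FF and P-SiaFNEtoc (n = 3) and Fucotrim II (n = 2). DHRS2 drops from 132 to 145 CPM in DMSO to 13.9 to 28.2 CPM in the Fucotrim libraries, ALDH1A1 from 93.6 to 99.1 to 22.5 to 31.6 CPM, and the points of DHRS4 overlap between all groups.

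Counts of RDH11 allowed a comparison within each library that needs no scaling. RDH11 is a retinal reductase with high expression in the prostate, and its level was between 116 and 157 CPM in all 14 libraries, with the lowest values in the Fucotrim I libraries. In DMSO there were nearly as many DHRS2 counts as RDH11 counts, with a ratio of 0.946 to 1.05 (mean 0.996 ± 0.0521, SD, n = 3). The ratio was 0.206 to 0.244 with Fucotrim I, 0.0888 to 0.145 with Fucotrim II, 0.43 to 0.49 with SGN-2FF and 0.565 to 0.601 with P-SiaFNEtoc. ALDH1A1 had 0.674 to 0.712 counts per RDH11 count in DMSO, 0.198 to 0.24 with Fucotrim I and 0.168 to 0.201 with Fucotrim II. With SGN-2FF this ratio was 0.464 to 0.505 and with P-SiaFNEtoc 0.507 to 0.578. In both ratios the DMSO libraries lay above all treated libraries, with no scaling between libraries.

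**Figure D2:**
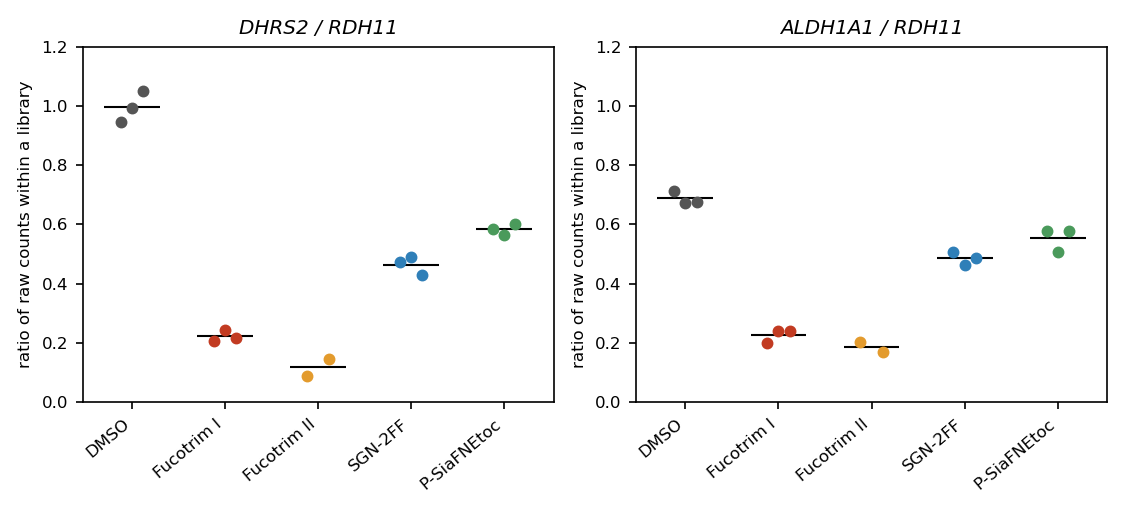
Ratio of raw counts within a library (vertical axes, linear, from 0) of DHRS2 to RDH11 on the left and of ALDH1A1 to RDH11 on the right, with 1 point per library and a line at the group mean. The DHRS2 ratio is near 1 only in DMSO (0.946 to 1.05), and it is 0.0888 and 0.145 in the Fucotrim II libraries.

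Per kilobase of the main transcript, the order of the members by level changed with treatment. Over all annotated exons, RDH11 at 25.4 CPM per kb already stood above DHRS2 at 18.5 in DMSO. By the main transcript, DHRS2, first in DMSO, came second to RDH11 with Fucotrim I (15.9 against 47.2 CPM per kb), SGN-2FF (39.8 against 56.6) and P-SiaFNEtoc (50.1 against 56.7). With Fucotrim II it was at 9.94 CPM per kb, behind RDH11 at 57.3, DHRS4 at 13.4, ALDH1A1 at 12.9 and CRABP2 at 12.6. Counts of DHRS2 were 6.23 to 9.25 times those of DHRS4 in DMSO, 1.41 to 1.8 times with Fucotrim I and 0.899 to 1.06 times with Fucotrim II.

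Of the enzymes that form retinal, RDH10 could be followed. RDH10, a retinol dehydrogenase required in embryonic development, was at 13.1, 12.7 and 11.6 CPM in DMSO. Its level was 10.1, 10.4 and 9.79 CPM with Fucotrim I, 9.68 and 7.97 CPM with Fucotrim II, 10.4, 9.56 and 9.95 CPM with SGN-2FF and 10.2, 12.2 and 10.5 CPM with P-SiaFNEtoc. All RDH10 values with Fucotrim I, Fucotrim II and SGN-2FF lay below those of DMSO. With P-SiaFNEtoc, only replicate 2 (12.2 CPM) reached the DMSO range. The log2 fold changes were -0.30 (standard error 0.10) with Fucotrim I, -0.50 (0.13) with Fucotrim II, -0.31 (0.10) with SGN-2FF and -0.19 (0.10) with P-SiaFNEtoc. Differences between the inhibitors were not tested. DHRS9, another retinol dehydrogenase, had 0 to 2 counts per library, which is too few to show a difference at this depth.

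Among the enzymes that reduce retinal, DHRS3 is itself a target of retinoic acid in many cells. It was at 16.1, 13.6 and 14.1 CPM in DMSO, 13.8, 13.8 and 15.8 CPM with Fucotrim I and 17 and 19.7 CPM with Fucotrim II. With SGN-2FF it was at 17.3, 17.5 and 15.4 CPM and with P-SiaFNEtoc at 16.5, 15.8 and 20.5 CPM. Only the Fucotrim II libraries lay wholly above those of DMSO, and the log2 fold changes were -0.02 (standard error 0.10), 0.32 (0.11), 0.21 (0.09) and 0.27 (0.09) in the order Fucotrim I, Fucotrim II, SGN-2FF and P-SiaFNEtoc. Taken against RDH10, the enzyme of the opposite reaction, DHRS3 had 1.07 to 1.23 counts per RDH10 count in DMSO and 1.33 to 1.62 with Fucotrim I, 1.76 to 2.47 with Fucotrim II, 1.55 to 1.83 with SGN-2FF and 1.3 to 1.95 with P-SiaFNEtoc. In this ratio every treated library lay above the DMSO libraries, with the narrowest gap for P-SiaFNEtoc (1.3 against 1.23 in DMSO). All comparisons share the same DMSO libraries, and the ratio was chosen with earlier results of these data known. The ratio was not tested, and nothing is read from it. With Fucotrim I, DHRS3 itself was at -0.02 and RDH10 at -0.30. RDH11, a more abundant retinal reductase, was at -0.22 with Fucotrim I and at 0.05 with each of the others.

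DHRS4, an NADPH-dependent reductase of peroxisomes, was at 15.7 to 21.1 CPM in DMSO and at 14.1 to 18.8 CPM in the treated libraries, with overlap in all 4 comparisons. Its log2 fold changes were between -0.15 and -0.06 with standard errors of 0.11 to 0.14. These values are uncertain, since 19.8% of the 100-base windows of its transcripts also occur in related genes, mainly DHRS4L2 (18.2%), and 11.2% of its exon bases lie opposite exons of DHRS4-AS1, which had 311 to 383 counts in DMSO. RDH11 was at 139, 142 and 138 CPM in DMSO and lower with Fucotrim I, at 122, 116 and 122 CPM (log2 fold change -0.22, standard error 0.05). Its libraries with the other inhibitors overlapped those of DMSO, with log2 fold changes of 0.05 in each.

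The other retinaldehyde dehydrogenases were scarce. ALDH1A2 had 0 to 2 counts in every library, and ALDH1A3 had 12 to 61. ALDH1A3 was at 1.98, 1.78 and 2.13 CPM in DMSO and at 2.04, 3.62 and 3.72 CPM with SGN-2FF, where replicate 1 fell within the DMSO range. Its log2 fold changes were -0.52 (standard error 0.28), -0.37 (0.27), 0.70 (0.22) and 0.02 (0.24) with Fucotrim I, Fucotrim II, SGN-2FF and P-SiaFNEtoc, and its libraries overlapped those of DMSO in all 4. ALDH1A3 values are also uncertain because 32.1% of its exon bases lie opposite exons of ALDH1A3-AS1 (2 to 10 counts per library) and the strand setting of the counting is not given in the sources used here. ALDH1A1 accounted for 97.7% to 98.2% of the ALDH1A counts in DMSO, 93.8% to 96.6% with Fucotrim I, 94.4% to 95% with Fucotrim II, 94.8% to 97% with SGN-2FF and 96.3% to 98.4% with P-SiaFNEtoc. The P-SiaFNEtoc libraries overlapped those of DMSO, and those of the other inhibitors lay below them.

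CRABP2, which hands retinoic acid to its nuclear receptors, ran in the other direction from DHRS2. It was at 9.62, 9.17 and 8.52 CPM in DMSO, 8.67, 10.9 and 9.63 CPM with Fucotrim I and 12.4 and 12.1 CPM with Fucotrim II. With SGN-2FF it was at 12.9, 12 and 10.3 CPM and with P-SiaFNEtoc at 15.9, 14.4 and 13.2 CPM. The libraries of Fucotrim II, SGN-2FF and P-SiaFNEtoc lay above those of DMSO. The log2 fold changes were 0.10 (standard error 0.12), 0.42 (0.11), 0.38 (0.11) and 0.68 (0.10).

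**Figure D3:**
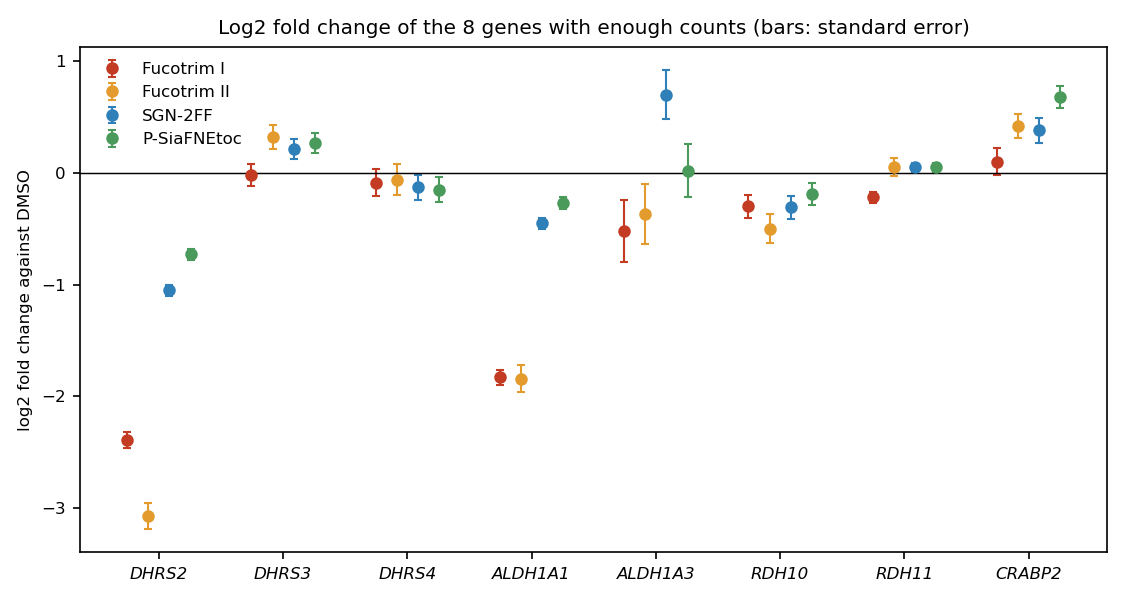
Log2 fold change from DMSO (vertical axis, log2 scale) of the 8 genes that passed the filter on low counts, with 1 point per inhibitor and bars of 1 standard error. DHRS2 (-3.07 to -0.73) and ALDH1A1 (-1.84 to -0.27) lie below 0 with all 4 inhibitors, RDH10 lies between -0.50 and -0.19, and CRABP2 lies between 0.10 and 0.68.

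Of the 10 genes, 8 passed the filter on low counts in every comparison, and DHRS9 and ALDH1A2 did not. At an adjusted p-value under 0.05 from edgeR's quasi-likelihood test, 4 of the 8 were called lower and 0 higher with Fucotrim I, where 22.1% of all genes tested were called lower and 21.6% higher. The count of 0 higher genes was the same at an unadjusted p under 0.05 and in DESeq2 and limma-voom. With Fucotrim II, 3 were called lower and 2 higher, against 25.7% and 25.6% of all genes. With SGN-2FF, 3 were called lower and 2 higher, against 9.08% and 11.5%, and with P-SiaFNEtoc 2 were called lower and 2 higher, against 7.33% and 9.02%. The median log2 fold change of the 8 genes was -0.26, -0.21, -0.04 and -0.07 in this order of inhibitors, against 0.00, 0.01, 0.00 and 0.00 over all genes tested. Since the genes were selected on these same comparisons, nothing is read from these counts.

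Of these 18 calls, 7 were each lost when at least 1 library was left out. For RDH10 with Fucotrim I this held without DMSO replicate 1 (-0.26), DMSO replicate 2 (-0.29), Fucotrim I replicate 1 (-0.29) or Fucotrim I replicate 3 (-0.27), and with SGN-2FF without DMSO replicate 1 (-0.28) or SGN-2FF replicate 2 (-0.28). For DHRS3 with Fucotrim II it held without DMSO replicate 2 (0.27), DMSO replicate 3 (0.29) or Fucotrim II replicate 2 (0.21), and with P-SiaFNEtoc without DMSO replicate 2 (0.22), DMSO replicate 3 (0.24) or P-SiaFNEtoc replicate 3 (0.15). CRABP2 lost its call with Fucotrim II without DMSO replicate 3 (0.37), and with SGN-2FF without DMSO replicate 3 (0.33), SGN-2FF replicate 1 (0.31) or SGN-2FF replicate 2 (0.36). ALDH1A3 lost its call with SGN-2FF without any 1 of the 3 DMSO libraries (0.63 to 0.75), SGN-2FF replicate 2 (0.57) or SGN-2FF replicate 3 (0.58). Without Fucotrim II replicate 2, RDH11 was called higher with Fucotrim II (0.15), and without DMSO replicate 1, DHRS3 was called higher with SGN-2FF (0.29).

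The rest of the pathway was counted from a list. Of 53 other genes listed for retinoid uptake, storage, conversion, clearance and response, 25 to 27 had enough counts to be tested. With Fucotrim I, 3 of 25 were lower and 4 higher, with Fucotrim II 6 of 27 lower and 5 higher, with SGN-2FF 1 of 26 lower and 4 higher, and with P-SiaFNEtoc 1 of 26 lower and 5 higher. Called in either direction, that is 28%, 40.7%, 19.2% and 23.1% of the listed genes tested. Over all genes tested, 6209 of 14188 were called in either direction with Fucotrim I and 7511 of 14617 with Fucotrim II. With SGN-2FF it was 2946 of 14312 and with P-SiaFNEtoc 2331 of 14259. By direction, the shares of all genes called lower and higher were 22.1% and 21.6% with Fucotrim I and 25.7% and 25.6% with Fucotrim II. They were 9.08% and 11.5% with SGN-2FF and 7.33% and 9.02% with P-SiaFNEtoc. The median log2 fold changes of the listed genes tested were 0.05, 0.11, 0.04 and 0.09. The 3 genes for retinoic acid clearance (CYP26A1, CYP26B1 and CYP26C1) had too few counts for a test. Of 11 other retinol and retinal oxidoreductases, 3 were tested and edgeR called 0 with any inhibitor, as did DESeq2 and limma-voom. At an unadjusted p under 0.05, 1 differed with Fucotrim I and 1 with SGN-2FF. AOX1, an aldehyde oxidase that can form retinoic acid, was lower with Fucotrim I (-0.78, standard error 0.19, edgeR's adjusted p = 0.00205) and higher with P-SiaFNEtoc (0.49, 0.14, edgeR's adjusted p = 0.0192). Its call with P-SiaFNEtoc was lost without DMSO replicate 1 (0.41), P-SiaFNEtoc replicate 1 (0.34) or P-SiaFNEtoc replicate 2 (0.48).

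The storage genes DGAT1 and LRAT were called in opposite directions with Fucotrim II and SGN-2FF. DGAT1, which esterifies retinol as well as diacylglycerol, was at 36.9 to 44.6 CPM in DMSO. It rose to 52.5 to 65.7 CPM with Fucotrim I (log2 fold change 0.54, standard error 0.09, edgeR's adjusted p = 6.13e-05) and to 70.8 to 81.2 CPM with Fucotrim II (0.86, 0.10, edgeR's adjusted p = 0.000104). Its rise with SGN-2FF (0.28, edgeR's adjusted p = 0.00568) was lost without SGN-2FF replicate 2 (0.24, edgeR's adjusted p = 0.0676). LRAT, the main retinol esterifying enzyme, went from 3.76 to 4.18 CPM in DMSO to 2.34 and 2.54 CPM with Fucotrim II (-0.69, 0.18, edgeR's adjusted p = 0.0106). It was at 1.82 to 2.81 CPM with SGN-2FF (-0.66, edgeR's adjusted p = 0.0131), a call lost without SGN-2FF replicate 1 (-0.50, edgeR's adjusted p = 0.0878). Both LRAT calls were lost in DESeq2 (adjusted p = 0.0531 and 0.0545). LRAT was not called with Fucotrim I (-0.37) or P-SiaFNEtoc (-0.31), and DGAT1 was not called with P-SiaFNEtoc (0.16). PNPLA4, the other storage gene tested, was at -0.07 to 0.07 and was not called with any inhibitor.

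Receptors and corepressors showed shifts in both directions. RXRA, the common partner of the retinoic acid receptors, rose by 0.37 with Fucotrim I and 0.53 with Fucotrim II (edgeR's adjusted p = 0.000987 and 0.00199). RXRA was also called higher with P-SiaFNEtoc (0.26, edgeR's adjusted p = 0.0131), a call lost in 5 of 14 alternatives. RARB, a receptor that is also a target of retinoic acid, fell by 0.68 with Fucotrim II (edgeR's adjusted p = 0.00146). RARG rose by 0.29 with P-SiaFNEtoc (edgeR's adjusted p = 0.000177). With SGN-2FF, RARG rose by 0.20 (edgeR's adjusted p = 0.00818), a call lost without SGN-2FF replicate 1 (0.17). RARB was also called lower with P-SiaFNEtoc (-0.31, edgeR's adjusted p = 0.0364), a call lost without DMSO replicate 2 (-0.30), DMSO replicate 3 (-0.27), P-SiaFNEtoc replicate 1 (-0.27) or P-SiaFNEtoc replicate 3 (-0.29). NRIP1, a receptor-interacting corepressor, fell by 0.30 with Fucotrim I and 0.47 with Fucotrim II (edgeR's adjusted p = 0.00457 and 0.00274).

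Of 9 genes known to respond to retinoic acid, 4 were tested. With Fucotrim II, 2 were called lower and 1 higher, beside 25.7% and 25.6% of all genes. With Fucotrim I, 0 were lower and 1 higher (22.1% and 21.6% of all genes), and with SGN-2FF 0 and 1 (9.08% and 11.5%). With P-SiaFNEtoc, 0 were lower and 0 higher (7.33% and 9.02%). RARRES2 was lower with Fucotrim II (-0.77, standard error 0.27, edgeR's adjusted p = 0.0392). That call was lost in 6 of 14 alternatives, among them DESeq2 (adjusted p = 0.114). MEIS1, a homeobox factor, was lower with Fucotrim II (-0.73, standard error 0.21, edgeR's adjusted p = 0.0146), and that call was lost without DMSO replicate 1 (-0.65) or Fucotrim II replicate 2 (-0.48). TGM2, a transglutaminase, had the largest log2 fold changes of the list and was named after its values were seen, since it has few counts. It had 6 to 10 counts per library in DMSO, 33 to 42 with Fucotrim I, 42 to 54 with Fucotrim II, 21 to 25 with SGN-2FF and 17 to 18 with P-SiaFNEtoc. Its log2 fold changes were 2.47 (standard error 0.29, adjusted p = 1.1e-06), 2.46 (0.31, adjusted p = 0.000187), 1.68 (0.33, adjusted p = 0.000583) and 0.98 (0.35, adjusted p = 0.0506, not called) from edgeR's test.

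**Figure D4:**
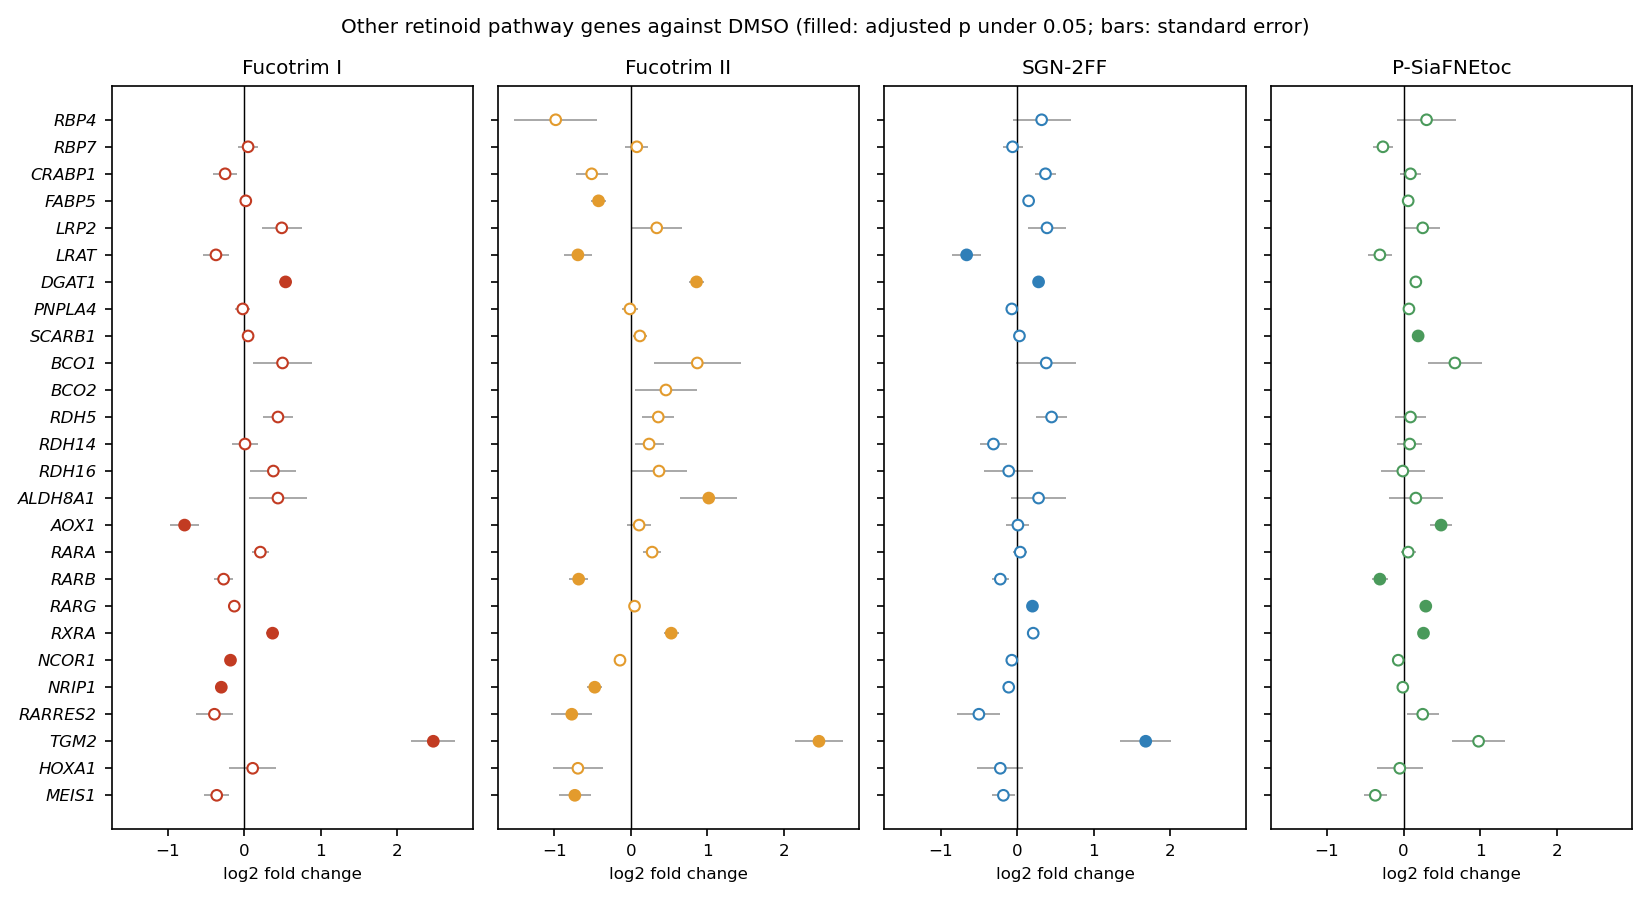
Log2 fold change from DMSO (horizontal axes, log2 scale) of the other retinoid pathway genes reported here that had enough counts for a test, with 1 panel per inhibitor, bars of 1 standard error and filled points for an adjusted p-value under 0.05 from edgeR's test. TGM2 is the far point on the right, at 2.47 and 2.46 for the Fucotrims and 1.68 for SGN-2FF.

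Relatives of the members by family were also counted. Of 24 other ALDH and DHRS genes, 20 or 21 were tested. With Fucotrim I, 5 were lower and 7 higher, with Fucotrim II 4 lower and 10 higher, with SGN-2FF 2 lower and 2 higher, and with P-SiaFNEtoc 1 lower and 1 higher. Called in either direction, that is 60%, 66.7%, 20% and 9.52% of the relatives tested. Over all genes tested, 6209 of 14188 were called in either direction with Fucotrim I and 7511 of 14617 with Fucotrim II. With SGN-2FF it was 2946 of 14312 and with P-SiaFNEtoc 2331 of 14259. By direction, 22.1% of all genes were called lower and 21.6% higher with Fucotrim I, and 25.7% and 25.6% with Fucotrim II. The shares were 9.08% and 11.5% with SGN-2FF and 7.33% and 9.02% with P-SiaFNEtoc. Of the 9 other DHRS genes 7 were tested, and edgeR called 0 lower with any inhibitor and 4, 6, 1 and 0 higher. DESeq2 and limma-voom also called 0 lower, and at an unadjusted p under 0.05 there was 1, with SGN-2FF. With P-SiaFNEtoc, 2 were higher at an unadjusted p under 0.05 and 0 in DESeq2 and limma-voom. DHRS12 rose with Fucotrim I (0.54, standard error 0.14, edgeR's adjusted p = 0.0043) and Fucotrim II (0.87, 0.16, edgeR's adjusted p = 0.00175).

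Among the ALDH relatives, ALDH1L2, the mitochondrial 10-formyltetrahydrofolate dehydrogenase, had the largest log2 fold change among the calls with Fucotrim I. It fell from 132 to 145 CPM in DMSO to 58.3 to 69.1 CPM with Fucotrim I (-1.10, standard error 0.06, edgeR's adjusted p = 6.12e-11). With SGN-2FF it fell to 95.5 to 105 CPM (-0.42, 0.05, edgeR's adjusted p = 2.81e-07). With Fucotrim II it was at 113 and 131 CPM and was not called. ALDH6A1 fell by 0.36 with Fucotrim I, ALDH1B1 by 0.38 with Fucotrim II and ALDH5A1 by 0.27 with Fucotrim II (edgeR's adjusted p = 6.94e-05, 0.00414 and 0.00779). ALDH3B2 rose by 0.73 with Fucotrim I and ALDH2 by 0.73 with Fucotrim II (edgeR's adjusted p = 0.000501 and 0.00522).

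The relatives named for SGN-2FF and P-SiaFNEtoc beside ALDH1L2 differed from DMSO by small amounts, and each of these calls was lost when some single library was left out. With SGN-2FF, ALDH5A1 was at -0.18, against -0.17 without DMSO replicate 1 and -0.16 without SGN-2FF replicate 1, and ALDH7A1 was at 0.21, against 0.20 without DMSO replicate 3. DHRS13 was at 0.15 with SGN-2FF, a call lost without DMSO replicate 2 (0.09), DMSO replicate 3 (0.16), SGN-2FF replicate 1 (0.14) or SGN-2FF replicate 2 (0.14). With P-SiaFNEtoc, ALDH4A1 was at 0.19, against 0.18 without P-SiaFNEtoc replicate 2 and 0.15 without replicate 3. ALDH5A1 was at -0.14 and lost its call without DMSO replicate 1 (-0.12), DMSO replicate 3 (-0.15) or any 1 of the 3 P-SiaFNEtoc libraries (-0.15 to -0.14).

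Genes with the most similar pattern were sought over the 4 log2 fold changes, as the root mean square difference, among 11836 genes that averaged 50 counts or more. For DHRS2 these were RND3 (difference 0.75), ALDH1A1 (0.77) and CHAC1 (0.81). CHAC1 was at -2.27, -1.46, -0.90 and -0.92 with Fucotrim I, Fucotrim II, SGN-2FF and P-SiaFNEtoc. For ALDH1A1 they were CDH2 (0.24), JAKMIP2 (0.30) and SLC7A11 (0.32), and CDH2 was at -1.45, -1.65, -0.63 and -0.11. DHRS2 was farther from its nearest gene than ALDH1A1 was from all 3 of its own. DHRS2 and ALDH1A1 were selected with these same falls known, so nothing is read from the nearness of ALDH1A1 to DHRS2.

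Genes within a window around DHRS2 and ALDH1A1 were read from the same fits. This window was chosen after the files had been seen. Of 10 genes within 250 kb of DHRS2, 5 were tested and edgeR called 0 lower with any inhibitor, also at an unadjusted p under 0.05, as did DESeq2 and limma-voom. Over all genes, edgeR called 22.1% lower with Fucotrim I, 25.7% with Fucotrim II, 9.08% with SGN-2FF and 7.33% with P-SiaFNEtoc. With 5 genes tested, nothing is read from the count of 0. AP1G2, 62.0 kb away, was higher with Fucotrim I (0.74, edgeR's adjusted p = 6.59e-09), Fucotrim II (0.89, edgeR's adjusted p = 5.38e-05) and SGN-2FF (0.40, edgeR's adjusted p = 2.37e-06). Near ALDH1A1, ANXA1 rose with Fucotrim I (0.68), SGN-2FF (0.69) and P-SiaFNEtoc (0.93) (adjusted p = 0.00802, 0.00674 and 0.000218 in edgeR). With Fucotrim II it was at -0.15 and was not called, and without Fucotrim I replicate 2 the Fucotrim I call was lost (0.50, edgeR's adjusted p = 0.0722).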

How the data were processed

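The authors prepared stranded mRNA libraries, trimmed the single reads (Cutadapt), aligned them to hg38 (HISAT2) and assigned them to genes (featureCounts), all in Galaxy. They deposited whole-number counts that were not normalized, and each inhibitor's table repeats the DMSO libraries. The annotation release, strand setting and treatment of reads with several matches are not given in the sources used here. The SGN-2FF table lists NCBI gene numbers only, of which 549 had no symbol.

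Each inhibitor was fitted alone with DMSO by edgeR 4.0.16 (robust quasi-likelihood test, filterByExpr with a minimum count of 10 and a minimum total of 15, TMM scaling, Benjamini-Hochberg adjustment over all genes tested, adjusted p-value under 0.05), in R 4.3.3. The standard error was the log2 fold change divided by the square root of F. CPM values per library were scaled by TMM over all 14 libraries. A count of 3 corresponds to 0.15 to 0.239 CPM. Counting error is the only error such a floor covers, since reads carry no molecular identifiers. The paper describes the replicates as biological repeats, and the p-values measure the spread between these samples. The 10 genes, the lists and the tests were chosen with earlier results of these data known. Named list genes are the 2 largest rises and 2 largest falls per inhibitor and list. They were taken among called genes averaging 50 counts or more whose libraries did not overlap those of DMSO. Outside this rule are TGM2, RARRES2, PNPLA4, RARB and NRIP1 with Fucotrim II, RXRA with P-SiaFNEtoc, RARG with SGN-2FF and the neighbouring genes. A named gene of the retinoid list is counted but not reported here. Alternatives were DESeq2 1.42.0, limma-voom 3.58.1, other filters and scaling, a fit of all 14 libraries, a replicate block, an adjusted p-value under 0.01 and leaving out each library. Leaving out mitochondrially encoded genes and the length over all exons were added after seeing the data. The edgeR fit was checked on simulated counts.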

Additional observations from a re-analysis of the deposited data

Results flagged for a closer look

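Both of these genes moved to opposite sides of DMSO with different inhibitors, with all libraries of a group on the same side, and the differences between inhibitors were not tested. AOX1, an aldehyde oxidase that can act on retinal, had a log2 fold change of -0.78 with Fucotrim I (2.36 to 3.43 CPM against 4.18 to 5.01 CPM in DMSO) and of 0.49 with P-SiaFNEtoc (5.23 to 7.64 CPM). The P-SiaFNEtoc call was lost without DMSO replicate 1 (0.41), P-SiaFNEtoc replicate 1 (0.34) or P-SiaFNEtoc replicate 2 (0.48). ALDH7A1, which oxidises an aldehyde of lysine breakdown, had a log2 fold change of -0.30 with Fucotrim I (29.2 to 31.8 CPM against 37.3 to 39.6 CPM in DMSO), 0.22 with Fucotrim II (42.7 and 46.5 CPM) and 0.21 with SGN-2FF (42.5 to 45.9 CPM). The Fucotrim II call was lost without DMSO replicate 1 (0.24), 2 (0.19) or 3 (0.20), without Fucotrim II replicate 2 (0.15), in DESeq2, without a filter on low counts and with the replicate block (adjusted p up to 0.271 in edgeR). The SGN-2FF call was lost without DMSO replicate 3 (0.20).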

How the results depend on the processing

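Over the alternatives, no named list gene that was called changed direction. The members were selected on these values, so their ranges are a description. DHRS2 ranged from -2.43 to -2.34 with Fucotrim I, -3.33 to -2.85 with Fucotrim II, -1.09 to -1.01 with SGN-2FF and -0.77 to -0.70 with P-SiaFNEtoc, and ALDH1A1 from -1.88 to -1.75, -2.10 to -1.62, -0.48 to -0.42 and -0.30 to -0.22. Genes called with SGN-2FF numbered 2946, with 1949 in the DESeq2 test, 1695 in the fit of all 14 libraries, 1609 at an adjusted p-value under 0.01 and 1642 to 3109 on leaving out 1 library (lowest without SGN-2FF replicate 2). With P-SiaFNEtoc they numbered 2331, with 1463, 998 and 1171 under the same alternatives and 1516 to 2115 on leaving out 1 library (lowest without P-SiaFNEtoc replicate 2). Retinoid pathway calls went from 11 to 7 with Fucotrim II at an adjusted p-value under 0.01, from 5 to 3 with SGN-2FF in DESeq2, and from 6 to 3 with P-SiaFNEtoc in DESeq2, in the fit of all 14 libraries and at an adjusted p-value under 0.01. Calls among the ALDH and DHRS relatives with Fucotrim II went from 14 to 9 at an adjusted p-value under 0.01 and were 9 to 15 on leaving out 1 library (9 without any 1 of the DMSO replicates 1, 2 and 3). With SGN-2FF they went from 4 to 1 at an adjusted p-value under 0.01 and to 2 to 4 on leaving out 1 library (2 without DMSO replicate 3 or SGN-2FF replicate 1). With P-SiaFNEtoc they went from 2 to 1 in DESeq2 and without a filter on low counts, to 0 in the edgeR fit of all 14 libraries and at an adjusted p-value under 0.01, and to 0 to 2 on leaving out 1 library (1 without P-SiaFNEtoc replicate 1, 0 without replicate 2 or 3). The causes were not tested. With the replicate number as a block, the relatives called with Fucotrim II went from 14 to 7, and with the block by library name they were 13. By title number, deviations of same-numbered libraries had correlations of -0.42 to 0.28 over 11836 genes, and the numbers were not taken as pairs. With Fucotrim I the correlations were 0.23, 0.28 and 0.03. The Fucotrim II libraries are 1 and 2 in their titles but 2 and 3 in their library names, and correlations by library name were not computed. Genes called with Fucotrim II numbered 7511, against 5300 with the block by title number and 7779 with the block by library name. The block by title number lost the calls of DHRS3 and CRABP2 with Fucotrim II (edgeR's adjusted p = 0.177 and 0.126) and of ALDH5A1 (0.118). The block by library name kept them. In DESeq2, RDH10 lost its calls with Fucotrim I and SGN-2FF (adjusted p = 0.092 and 0.0999), DHRS3 with Fucotrim II and P-SiaFNEtoc (0.0754 and 0.13), and CRABP2 and ALDH1A3 with SGN-2FF (0.0551 and 0.0938). In limma-voom, ALDH1A3 with SGN-2FF and DHRS3 with P-SiaFNEtoc lost theirs (adjusted p = 0.0536 and 0.0736). Depth limited DHRS9 and ALDH1A2, for which 0 to 2 counts per library allow no fold change.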
